A study of Homo sapiens with 4 samples.

Results

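The 10 genes described here are those through which cells take up, activate, retain and break down fluorouracil and related fluoropyrimidine drugs: TYMS, FPGS, UMPS, UPP1, TYMP, TK1, RRM2, CDA, SLC29A1 and DPYD. They were chosen by name, as 10 of the 20037 protein-coding genes with coordinates in the RefSeq annotation, and not by any measured value. Earlier results of these data were known when the choice was made. H3K14ac, acetylation of lysine 14 of histone H3, was mapped by chromatin immunoprecipitation and sequencing in MKN45, an established human gastric cancer cell line. One library came from cells carrying the hairpin labelled shNT, which served as the control here, and one from cells carrying a hairpin against NIT2 (shNIT2). The labels give 4 samples in all, and the values of the 2 input libraries were not analysed here. Both groups share the cell line, the antibody and the medium, and the labels name neither a drug treatment nor the number of hairpins or clones. No file measures NIT2 RNA or protein, so the depth of the knockdown is unknown.

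The study's title links NIT2 to resistance against fluorouracil, and the comparison here asks which genes that handle the drug carry H3K14ac in either cell population. Each condition had 1 library. No difference between the lists has a replicate check, and none was tested.

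Fluorouracil is a uracil analogue that becomes toxic once cells turn it into nucleotides. UMPS joins the base directly to a ribose phosphate, UPP1 and TYMP attach ribose or deoxyribose first, and TK1 phosphorylates the resulting deoxyribonucleoside. The deoxynucleotide product locks thymidylate synthase, encoded by TYMS, in a complex with reduced folate, and FPGS lengthens the polyglutamate tail that retains that folate in the cell. Ribonucleotide reductase, with RRM2 as a subunit, supplies deoxynucleotides. CDA deaminates an intermediate in the conversion of the prodrug capecitabine to fluorouracil, SLC29A1 carries nucleosides across the membrane, and DPYD starts the breakdown of the drug. H3K14ac is commonly found at active promoters and enhancers.

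Of the promoters of the 10 genes, 6 are printed to show the sequence at starts that carried the mark in different ways and at one that lacked it. Each run holds the 250 bases before the outermost annotated start, or the nearest 150 for TK1, so that the neighbouring gene AFMID is not entered. The sequences are RefSeq's for GRCh38.p14, read 5′ to 3′ on the strand of the gene. Capitals mark matches, on either strand, to CCAAT (the CCAAT box), GGGCGG (the GC box), TTCCCGC (an E2F-type motif), TATAAA (the TATA box) or CCGGAAG (an ETS-type motif). All 10 genes have an entry in the promoter table.
TYMS, chr18:657403-657652, plus strand: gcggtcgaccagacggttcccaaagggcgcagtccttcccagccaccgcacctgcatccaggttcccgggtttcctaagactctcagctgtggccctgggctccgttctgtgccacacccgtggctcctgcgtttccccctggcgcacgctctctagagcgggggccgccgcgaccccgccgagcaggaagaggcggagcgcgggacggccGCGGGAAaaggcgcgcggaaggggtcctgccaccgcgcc
UPP1, chr7:48088454-48088703, plus strand: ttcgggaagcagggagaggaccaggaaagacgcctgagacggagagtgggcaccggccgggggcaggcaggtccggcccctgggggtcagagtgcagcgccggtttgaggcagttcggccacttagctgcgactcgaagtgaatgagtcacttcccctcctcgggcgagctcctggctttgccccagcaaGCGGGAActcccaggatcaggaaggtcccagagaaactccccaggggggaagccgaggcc
RRM2, chr2:10122318-10122567, plus strand: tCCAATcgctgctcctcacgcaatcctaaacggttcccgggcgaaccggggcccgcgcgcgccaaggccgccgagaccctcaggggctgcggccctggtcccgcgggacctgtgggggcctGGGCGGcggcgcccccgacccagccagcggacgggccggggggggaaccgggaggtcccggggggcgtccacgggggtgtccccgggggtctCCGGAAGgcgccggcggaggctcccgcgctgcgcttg
CDA, chr1:20588847-20589096, plus strand: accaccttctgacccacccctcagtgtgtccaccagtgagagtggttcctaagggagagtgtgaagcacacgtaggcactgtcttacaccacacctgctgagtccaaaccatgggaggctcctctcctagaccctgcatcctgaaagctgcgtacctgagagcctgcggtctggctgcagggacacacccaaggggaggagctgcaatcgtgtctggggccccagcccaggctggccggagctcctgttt
SLC29A1, chr6:44219365-44219614, plus strand: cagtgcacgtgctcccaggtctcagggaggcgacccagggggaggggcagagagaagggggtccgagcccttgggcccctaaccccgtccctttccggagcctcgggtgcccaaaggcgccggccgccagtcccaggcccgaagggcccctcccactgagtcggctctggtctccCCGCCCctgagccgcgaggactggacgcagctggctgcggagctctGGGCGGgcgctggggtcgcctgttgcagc
TK1, chr17:78187205-78187354, minus strand: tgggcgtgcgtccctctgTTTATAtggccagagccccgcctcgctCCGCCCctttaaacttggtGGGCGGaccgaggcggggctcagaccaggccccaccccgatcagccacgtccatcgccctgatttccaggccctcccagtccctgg

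The E2F-type motif lies in the TYMS and UPP1 windows, which makes 2 of the 10 genes against 7.39% of 15842 protein-coding promoters of the same length. In TYMS it ends 33 bases before the start, and in UPP1 it ends 54 bases before it. In both it reads GCGGGAA, the other strand of the searched letters. The GC box occurs in 6 of the 10 genes (55.8% of all promoters), the CCAAT box in TYMP, RRM2 and FPGS (34.5%) and the ETS-type motif in TYMP and RRM2 (11.7%). The TATA-box letters occur in TK1 (9.35%), where they read TTTATA, the other strand of the searched letters, and end 127 bases before the start. The CDA and UMPS windows hold none of these 5 motifs. In FPGS, 3 of its 6 GC boxes abut and overlap in 2 bases. A match describes letters only and shows no binding.

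Pileups and backgrounds differed strongly between the lists. Summits held a median of 6 fragments in shNT and 22 in shNIT2, and total reads are unknown. The deposited lists hold 39876 regions for shNT and 28187 for shNIT2, and a region is a peak as the authors called it. Their fold enrichment divides the fragment pileup at the summit by the background, with 1 added to each. The pileup and background behind each fold were solved from the fold and the −log10 p. The lowest background of any region was 0.278 fragments in shNT and 2.48 in shNIT2. At those floors, 3 fragments in shNT and 9 in shNIT2 were the fewest that reached the lowest p of the list. A called region therefore had to stand 10.8 times over background at the shNT floor and 3.63 times at the shNIT2 floor. At these floors, a pileup of the same height over background could be listed in shNIT2 and not in shNT. As a check of the cell type, all 8 epithelial markers examined had a shNIT2 region within 1 kb of a gene end, and 4 had a shNT region. Of 8 markers of other cells, 2 (CD3E and NEFL) had a shNIT2 region and 0 had a shNT region. By the same rule, 36.8% of all protein-coding genes were marked in shNIT2 and 6.41% in shNT. With 8 markers, the counts for other cells cannot be told apart from these shares.

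Regions were listed at all 10 genes in the knockdown and at 6 in the control, counted within 10 kb of the gene span. They numbered 22 in shNIT2 and 12 in shNT. Of all protein-coding genes, 54.9% met the same rule in shNIT2 and 38.6% in shNT. RRM2, TYMP, UMPS and TK1 had a region in shNIT2 alone (27.5% of all genes), and no gene of the 10 had one in shNT alone (11.2%). Within 1 kb of a gene end, where long genes have no advantage, 7 of the 10 were marked in shNIT2 (background 36.8%) and 3 in shNT (6.41%). TYMS and UPP1 were marked in both lists (5.12%), and TYMP, CDA, RRM2, FPGS and UMPS in shNIT2 alone (31.7%). SLC29A1 was marked in shNT alone (1.29%), and DPYD and TK1 in neither list (61.9%). The same genes were marked when only the end with the transcription start was counted, for which the shares of 15842 genes were 37.4% in shNIT2 and 5.48% in shNT.

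**Figure D1:**
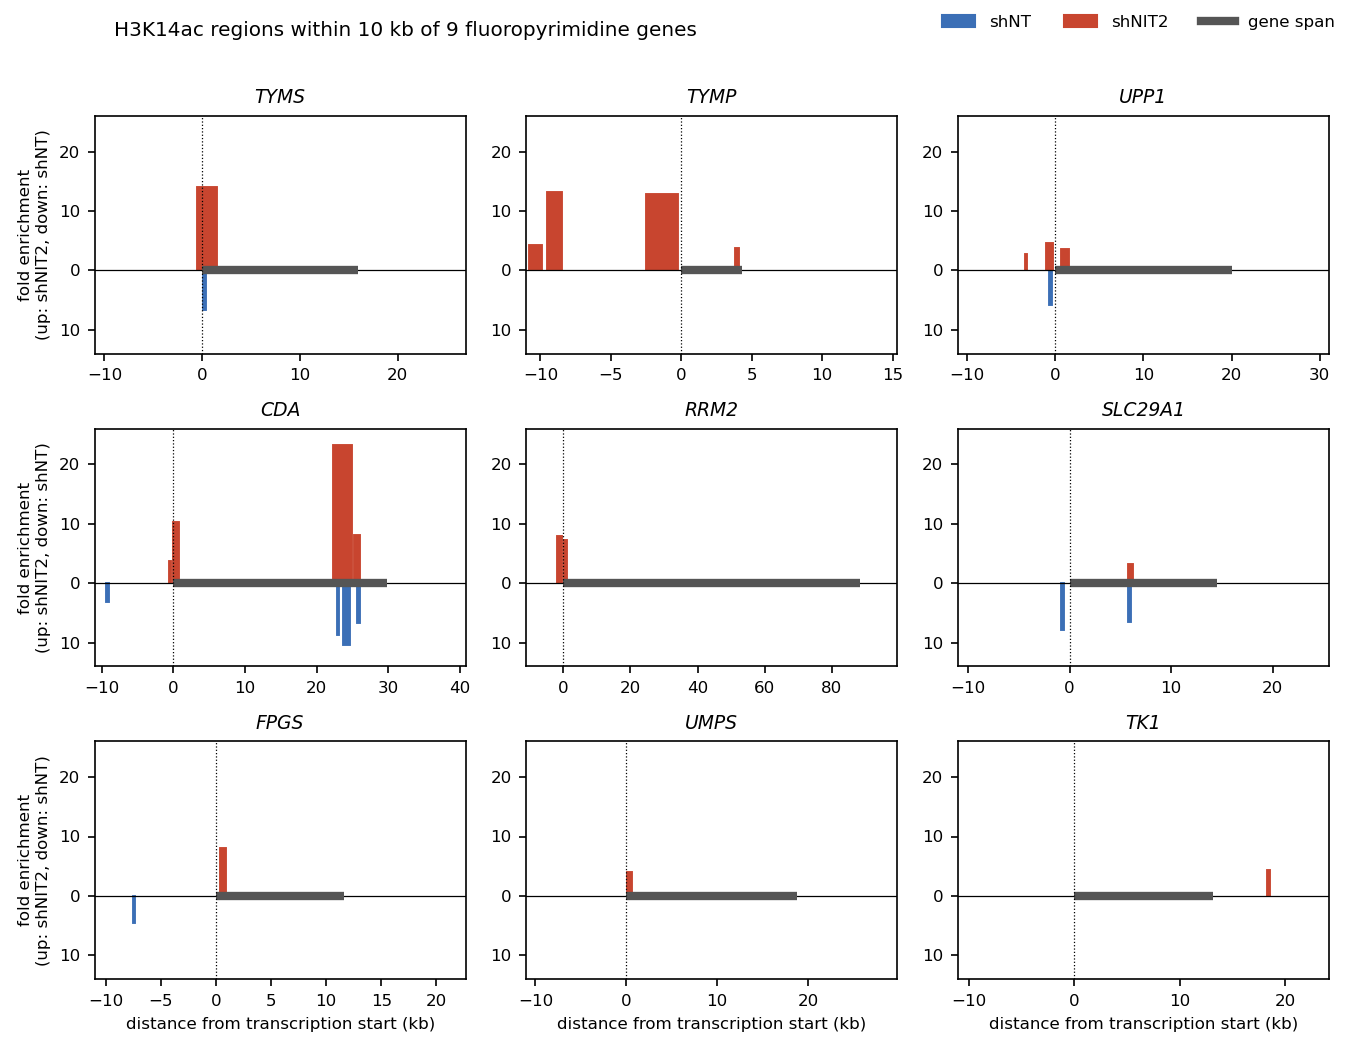
H3K14ac regions within 10 kb of the 9 genes other than DPYD. The horizontal axis is the distance from the outermost transcription start in kb, with transcription running to the right, and each panel has its own range. Bars rise to the authors' fold for shNIT2 and hang down for shNT, with a thin outline so that narrow regions can be seen. The tallest bar is the shNIT2 region inside CDA (23.2-fold), and the TK1 panel holds a single region, beyond the gene.

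TYMS, the target of the drug, had 1 region in each list, and both lay at its start (chr18:657653-673578). In shNIT2 the region ran from 657162 to 659110 over the start, 1949 bp wide, at 14.1-fold on 103 fragments over a background of 6.38. In shNT it ran from 657736 to 658075, 340 bp wide and 83 bp inside the gene, at 6.71-fold on 9 fragments over 0.49. The control region lay wholly within the knockdown region, and the summits were 20 bp apart, against a median of 170 bp over all 3626 overlapping pairs of the lists.

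Pileup over background at TYMS was 16.1 in shNIT2 (exact Poisson 95% interval of the pileup, 13.2 to 19.6) and 18.4 in shNT (8.4 to 34.9). These intervals overlap, and like those below they cover counting error only. The knockdown value was 0.879 of the control value, and 77.8% of all solved pairs had a lower quotient. The median quotient over all solved pairs was 0.522. Within its list, the TYMS region had a −log10 p above that of 98.6% of regions in shNIT2 and 75.9% in shNT. The antisense RNA gene TYMSOS starts inside the shNIT2 region, 216 bp from the shNT region, so the acetylation could belong to either transcript. ENOSF1, which overlaps the far part of TYMS, lay 3876 bp or more from both regions.

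FPGS, the folate polyglutamylating enzyme (chr9:127802858-127814506), had a start region in shNIT2 alone. It ran from 127803219 to 127803742, 361 bp inside the gene and 38 bp beyond the last of its 3 annotated starts. Its fold was 8.04 on 44 fragments, with a pileup 9.58 times the background (6.96 to 12.9). The control list held 1 region nearby, 7314 bp upstream on 5 fragments (4.55-fold), which lay nearer to the transcription kinase gene CDK9 (4506 bp). Its pileup was 15.7 times the background (5.1 to 36.6).

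The activating enzymes UMPS and UPP1 had modest regions at their starts. UMPS (chr3:124730452-124749273) had 1 region, in shNIT2, from 124730517 to 124731037. It began 65 bp inside the gene and reached 4.07-fold on 29 fragments. The nearest control region was 56962 bp from that start.

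UPP1, uridine phosphorylase (chr7:48088704-48108736), was the other gene marked at its start in both lists. In shNIT2, regions lay on both sides of the start, from 48087717 to 48088527 (4.63-fold, 42 fragments) and from 48089425 to 48090246 (3.65-fold, 23 fragments). The 897 bp between them hold all 3 annotated starts. In shNT, 1 region from 48088076 to 48088361 (5.81-fold, 9 fragments) lay within the upstream one. Pileup over background was 5.06 in shNIT2 (3.65 to 6.85) and 12.5 in shNT (5.7 to 23.7) for this pair, a quotient of 0.406 that exceeded 34.0% of all pairs. A further shNIT2 region lay 3139 bp upstream at 2.77-fold, the lowest fold among the 22.

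TYMP, thymidine phosphorylase (chr22:50525752-50530085, minus strand), had 4 regions in shNIT2 and 0 in shNT, and other genes could own each of them. The one at the start, from 50530287 to 50532603, reached 12.9-fold on 44 fragments. It ended 202 bp short of the TYMP start and held the whole of the neighbouring gene CIMAP1B. It covered the outermost 49 of the 250 bases before the TYMP start. The region inside TYMP, from 50526011 to 50526288 (3.74-fold, 12 fragments), also lay inside SCO2, a cytochrome c oxidase assembly gene that overlaps the far end of TYMP. The other two lay 8484 and 9902 bp upstream, at 13.2-fold and 4.26-fold. They were beside and inside the long noncoding RNA gene LOC102724608. The nearest control region to the TYMP start was 33212 bp away, on 3 fragments.

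RRM2, the ribonucleotide reductase subunit (chr2:10122568-10211010), had a pair of shNIT2 regions on either side of its start and no control region within 10 kb. The upstream one ran from 10120654 to 10122273 (7.98-fold, 45 fragments) and the downstream one from 10122786 to 10123673 (7.30-fold, 32 fragments). Between them, 512 bp without a call held both annotated starts and the whole promoter printed for RRM2 above. Pileup over background was 9.44 (6.89 to 12.6) and 9.08 (6.21 to 12.8), so the regions did not differ beyond counting error. Both values lie under the 10.8 needed at the control's floor and over the 6.92 needed at a control background of 0.722. The control background at RRM2 is not known. The nearest coding neighbour was over 40 kb away (CYS1, 40243 bp), and the nearest control region lay 15807 bp upstream on 5 fragments.

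TK1, thymidine kinase (chr17:78174079-78187204, minus strand), had no region in its span or at its ends in either list. The only region within 10 kb was a shNIT2 one from 78168657 to 78168981 (4.34-fold, 31 fragments), 5098 bp past the far end of TK1. It lay inside SYNGR2, 112 bp from that gene's start. The nearest control region to the TK1 start was 95608 bp away.

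CDA, cytidine deaminase (chr1:20589097-20618903), carried the highest region of the 10 genes in each list, and it lay inside the gene and not at the start. In shNIT2 the region from 20611442 to 20613996 reached 23.2-fold on 89 fragments, with 99.0% of that list at a lower −log10 p. A second one, from 20614273 to 20615097, reached 8.03-fold on 48. In shNT the regions from 20611882 (8.72-fold, 13 fragments), from 20612782 (10.4-fold, 13 fragments) and from 20614750 (6.64-fold, 8 fragments) all overlapped those of the knockdown. Together the 5 regions span 3714 bp and lie at least 22345 bp past the start, within the last part of the gene and 18303 bp or more from PINK1, the nearest coding neighbour.

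The largest CDA region had a pileup 30.9 times background in shNIT2 (24.9 to 38.1). The 2 control regions it covers had 21.4 (11.4 to 36.7) and 37.9 (20.2 to 64.8). All of these intervals overlap. Against the 2 control regions the quotients were 1.44 and 0.817, above 91.8% and 74.6% of all pairs. The summits of these pairs lay 1040 and 224 bp apart, against a median of 170 bp over all pairs. The knockdown summit fell inside the control region from 20612782, so the quotient of 1.44 sets heights at different positions side by side. The second knockdown region had a pileup 9.41 times background (6.94 to 12.5) and its partner 22.6 (9.74 to 44.4), a quotient of 0.417. Their summits lay 382 bp apart, and the knockdown summit fell outside the control region.

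The start of CDA was marked in shNIT2 alone. A region from 20589055 to 20589936 covered it at 10.3-fold on 35 fragments, and a weaker one ended 379 bp upstream (3.73-fold, 17 fragments). At the start region the pileup was 14.1 times background (9.83 to 19.6), an interval that includes the 10.8 of the control's floor. The nearest control region lay 9006 bp upstream on 3 fragments. In shNIT2, 614 of the 5922 genes with a marked start (10.4%) had, like CDA, their highest region more than 10 kb from that start. Only regions in the gene span or within 1 kb of it were counted. Genes too short to meet this rule are part of the 5922.

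**Figure D2:**
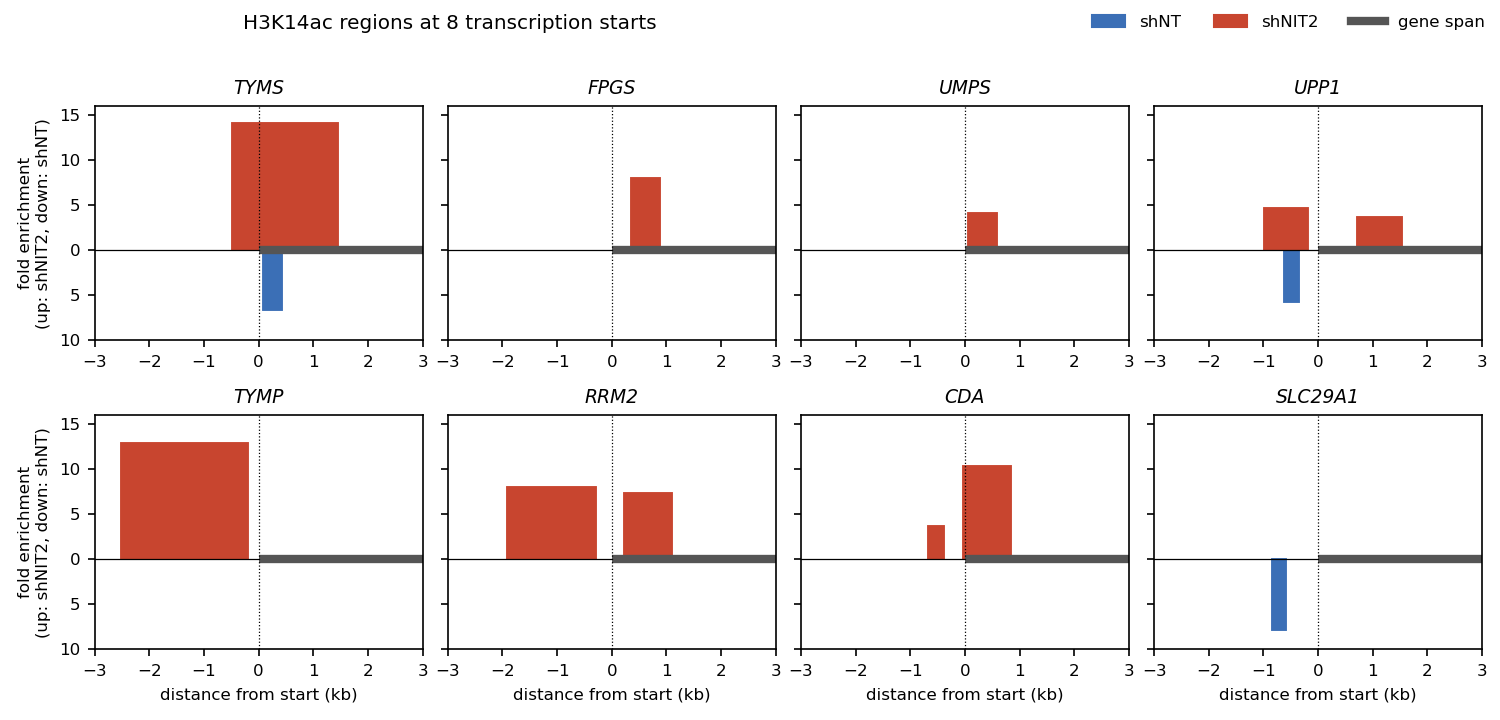
The same regions within 3 kb of the start of 8 genes. The horizontal axis is the distance from the start in kb and the vertical axis the authors' fold, upward for shNIT2 and downward for shNT. TYMS and UPP1 have bars of both colours, 5 genes have shNIT2 bars alone, and SLC29A1 has a shNT bar alone.

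SLC29A1, the equilibrative nucleoside transporter (chr6:44219615-44234142), was the only one of the 10 genes with a start region in the control alone. That region ran from 44218779 to 44219028, 587 bp upstream of the start, at 7.85-fold on 11 fragments, 20.8 times the background (10.4 to 37.2). It lay 545 bp from the muscle fusion gene MYMX, slightly nearer than to SLC29A1. In shNIT2 the nearest region to the start was 5696 bp inside the gene, and the shNIT2 background at the start itself is not known.

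That inner region was shared. It ran from 44225311 to 44225808 in shNIT2 (3.15-fold, 15 fragments) and from 44225334 to 44225630 in shNT (6.46-fold, 8 fragments), 1716 and 1739 bp past the second annotated start of SLC29A1. Pileup over background was 3.67 in shNIT2 (2.06 to 6.06) and 20.3 in shNT (8.78 to 40.1), and the intervals do not overlap. The summits lay 291 bp apart, against a median of 170 bp over all pairs. The shNIT2 summit fell outside the shNT region, so the values give heights at different positions. The quotient of 0.181 was among the lowest, with 2.11% of all pairs below it. Of the 5 knockdown regions shared at the 10 genes, this one had the lowest quotient. Pileups and background floors differed between the lists here as everywhere, and their part in the result was not tested.

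DPYD, dihydropyrimidine dehydrogenase (chr1:97077743-97921059, minus strand), is by far the longest of the 10 genes, at 843317 bp. Neither list had a region at its start. The nearest in shNT was 302379 bp inside the gene and the nearest in shNIT2 402035 bp upstream, outside the window. All 4 knockdown regions lay within 6978 bp (97271945 to 97278922) in the far part of the gene, at 3.49 to 5.91-fold on 12 to 23 fragments. That stretch lies in DPYD-AS1, an antisense RNA gene, 176022 bp or more from its start. The 3 control regions lay elsewhere: one from 97321228, also in DPYD-AS1 (6.25-fold, 8 fragments), and 2 weak ones from 97556903 and from 97618394 on 4 and 3 fragments. None was shared between the lists.

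In shNIT2, DPYD had 0.474 regions per 100 kb, against a median of 0.13 over the 315 coding genes of at least 500 kb, of which 72.1% had a lower value. In shNT it had 0.356, against a median of 0.404, with 39.4% lower. Starts were marked in 10.5% of these long genes in shNIT2 and 1.27% in shNT, so an unmarked start is the common state among them.

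**Figure D3:**
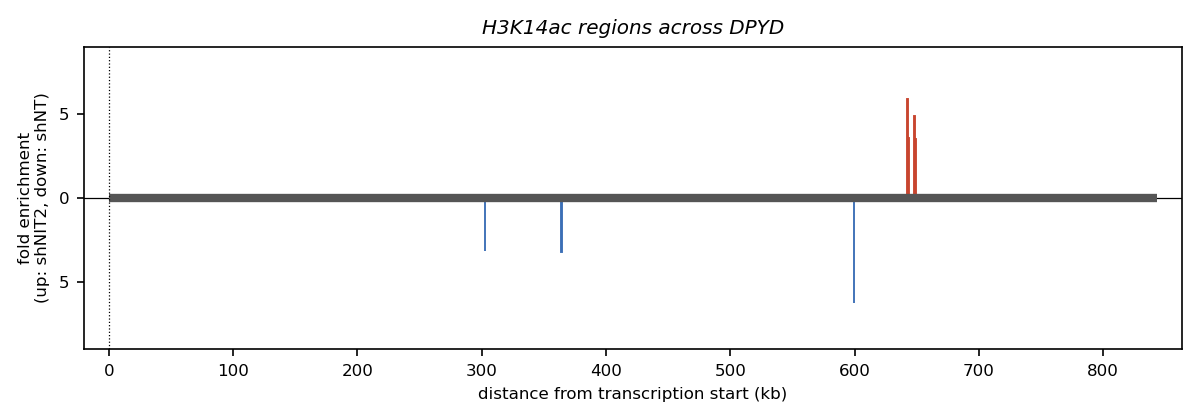
H3K14ac regions across DPYD. The horizontal axis is the distance from the start in kb, the grey bar is the gene, and the vertical axis is the authors' fold, with shNIT2 upward and shNT downward. The 4 shNIT2 regions stand together, with summits between 642649 and 649080 bp from the start, and the 3 shNT regions stand apart from them and from each other.

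Taken over the 10 genes, the arrangement at the start varied in the knockdown list. A region covered the start in TYMS and CDA. Regions flanked an uncovered start in UPP1 and RRM2. FPGS and UMPS had one downstream only, and TYMP one upstream only. Among the 5922 genes with a marked start in shNIT2 these arrangements made up 15.8%, 19.8%, 52.2% and 12.2%. Promoter GC content of the 250 bases was 71.2% in TYMS, 78.8% in RRM2, 80.8% in TYMP, 69.6% in FPGS, 66.0% in UPP1, 62.0% in UMPS and 60.4% in CDA. It was 73.2% in SLC29A1, 68.8% in DPYD and 62.4% in TK1, the genes with no shNIT2 region at the start. The medians were 66.4% over starts marked in shNIT2 and 59.2% over unmarked ones, and the marked and unmarked genes among the 10 overlapped in GC content.

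Shared regions were counted against those near coding genes in general. Of the 12 control regions 6 overlapped a knockdown region (50%), against 22.5% of the 11753 control regions within 10 kb of any coding gene. Of the 22 knockdown regions 5 overlapped a control region (22.7%), against 11.5% of 21212. These counts rest on an overlap of at least 1 bp, and with a 50% reciprocal overlap 1 region of each list was shared. CDA alone gave 3 of the 6 and 2 of the 5. Of the 22 knockdown regions, 17 had a pileup under 10.8 times the background. At the highest background of any control region of these genes (0.722), 5 fragments or 6.92 times the background would pass, and 12 of the 22 lie below that too. The 5 at or above 10.8 were those at the TYMS start, at the CDA start, inside CDA, and at 202 and 8484 bp upstream of TYMP. Over all knockdown regions within 1 kb of a start, 34.5% of the 806 at or above 10.8 were shared and 7.19% of the 5730 below it.

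**Figure D4:**
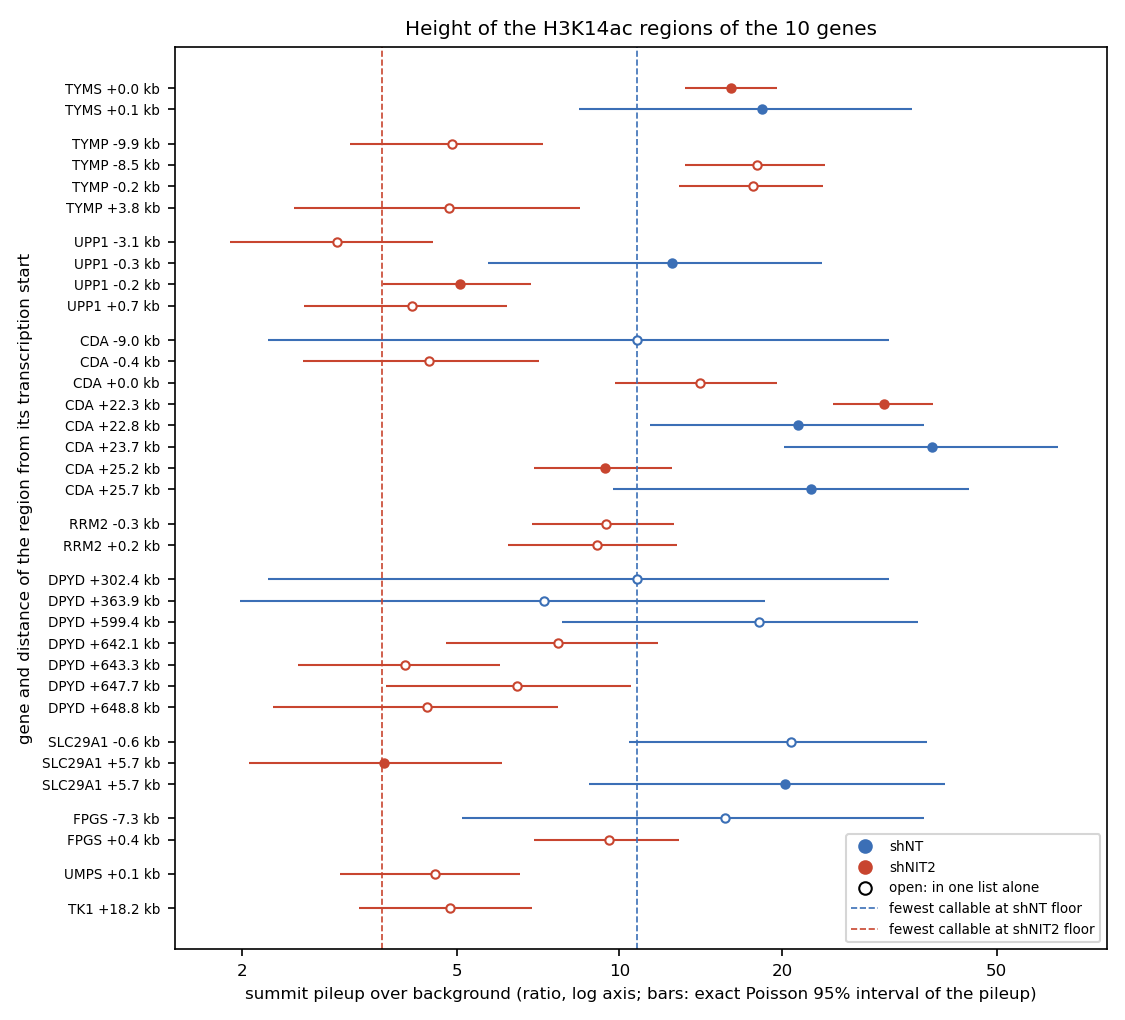
Pileup at the summit over background for the 34 regions of the 10 genes, on a log axis, with exact Poisson 95% intervals of the pileup. Filled points are shared between the lists, and the dashed lines mark 10.8 and 3.63, the fewest callable at the shNT and shNIT2 floors. Most open shNIT2 points lie to the left of the shNT line.

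Beyond these 10 genes, 41 others of the same pathways were counted by the gene-end rule. In shNIT2 27 were marked (65.9%, background 36.8%) and in shNT 7 (17.1%, background 6.41%). Of the 41, 6 were marked in both (5.12% of all genes), 21 in shNIT2 alone (31.7%), 1 in shNT alone (1.29%) and 13 in neither (61.9%). Among genes of folate and thymidylate synthesis, 9 of 10 were marked in shNIT2. MTHFD1 and the thymidylate kinase DTYMK were marked in both lists, and their control regions, on 5 fragments each, lay outside the genes. These lay 975 bp (MTHFD1) and 374 bp (DTYMK) from the start. Neither overlapped the knockdown region recorded for its gene, from 64388446 to 64389256 in MTHFD1 and from 241686061 to 241686616 in DTYMK. Of 13 activation genes, 8 were marked in shNIT2, led by the nucleoside diphosphate kinase NME2 (9.37-fold, 53 fragments). UCK1, CMPK1 and the carboxylesterase CES2 were marked in both, on 6, 4 and 6 fragments in the control. The UCK1 control region lay outside the gene, 950 bp from the start, and did not overlap the knockdown region.

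All 3 genes of de novo pyrimidine synthesis and all 4 of uracil removal from DNA were marked in shNIT2. CTPS1, which makes cytidine triphosphate, was marked in both lists (8.66-fold on 37 fragments in shNIT2, 6.17-fold on 7 in shNT). The uracil glycosylase SMUG1 was the highest of its group in shNIT2 (4.21-fold). Of the transporters, 3 of 9 were marked in shNIT2 (33.3%), close to the background of 36.8%, with SLC29A2 the highest (4.07-fold). SLC28A1, a concentrative nucleoside transporter, was marked in shNT alone (4.51-fold on 6 fragments, 333 bp inside the gene), as were SLC29A1 and 1.29% of all genes. DPYS and UPB1, which continue the breakdown that DPYD begins, were marked in neither list, as were 61.9% of all genes.

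**Figure D5:**
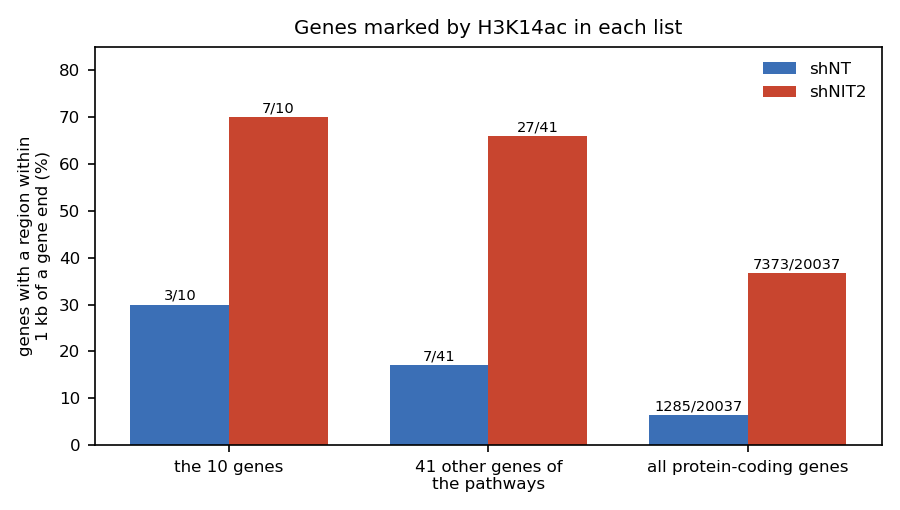
Percent of genes with a region within 1 kb of a gene end in each list, for the 10 genes, the 41 other pathway genes and all 20037 protein-coding genes. Numbers above the bars are genes marked and genes counted, and each gene set has the higher bar in shNIT2.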

How the data were processed

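H3K14ac ChIP-seq of MKN45 cells gave 1 peak list per condition, each called on 1 library. Per the submitters' processing notes, Bowtie2 2.2.6, MACS2 2.1.1 and ChIPseeker were used with hg38, besides FastQC and the trimmers Trimmomatic 0.35 and cutadapt 1.9.1. The control used by the peak caller and the treatment of duplicate reads are not given in the sources used here. The deposited lists hold, per peak, a score, a fold enrichment (a ratio), the −log10 p and the −log10 q, and the lowest −log10 q is 1.30 in both.

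Samples were grouped by title. Genes and spans came from RefSeq's table of GRCh38.p14 (the chromosomes of hg38), and starts and strands from its promoter table, which covers 15842 of 20037 coding genes. Exons and introns were not distinguished. Regions were assigned by an overlap of at least 1 bp with the span plus 10 kb, or with 1 kb on each side of a gene end. Coordinates are 1-based. Whole-number pileups were solved from the fold and −log10 p with the Poisson upper tail, within 0.1% of the −log10 p, for 99.96% of regions in each list. In 1653 peaks simulated by the same formula 100% were recovered. This checks the solving step and not whether the deposited values follow that formula. Intervals are exact Poisson at 95% and treat the background as known.

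With 1 library per condition no test was run, and total reads are unknown. The genes and lists were chosen with earlier results of these data known. All 10 genes are named. Of the other pathway genes, those named had the highest shNIT2 fold of their group or were marked in shNT (1 such gene is not reported here), and DPYS, UPB1 and neighbours that hold or adjoin no region were named after their values were seen. Python 3.11.15, pandas 2.3.3, numpy 2.4.6 and scipy 1.17.1 were used. Alternatives varied the q and fold thresholds, the list length, the flank, the window and the overlap.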

Additional observations from a re-analysis of the deposited data

How the results depend on the processing

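Of 72 counts under alternatives, 47 stayed within 1.5 times the reported count and 25 moved. The knockdown list had the larger count of marked genes, of marked pathway genes and of regions under every alternative tried. Shares of all protein-coding genes under these alternatives are not given here, so the counts cannot be set against a background. At −log10 q of at least 10, 1 gene of the 10 had a shNT region within 10 kb and 6 a shNIT2 region, 0 had a shNT region at a gene end, and 2 shNT and 10 shNIT2 regions were left, of which 2 and 1 were shared. Pathway genes marked then numbered 0 in shNT and 5 in shNIT2. At a fold of at least 5, 6 genes had a shNIT2 region within 10 kb, 10 shNIT2 regions were left and 3 of them were shared, and 2 (shNT) and 7 (shNIT2) pathway genes were marked. With the 10000 strongest regions of each list, 3 genes had a shNT region, 5 shNT and 12 shNIT2 regions were left, 3 of the latter were shared, and 0 (shNT) and 7 (shNIT2) pathway genes were marked. At −log10 q of at least 5, 1 pathway gene was marked in shNT, and with windows of 500 bp there were 4. Over the gene span alone 14 shNIT2 regions were left. A 50% reciprocal overlap left 1 shared region in each list. The start-end count of pathway genes rests on the 31 of 41 with an annotated start. No paired analysis was possible because each condition had 1 library. At its floor the control needed a pileup 10.8 times the background, and 6.92 times at a background of 0.722. TYMS and SLC29A1 kept their gene-end mark in shNT among the 10000 strongest regions, and UPP1 did not.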

Other observations

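The length of DNA called at a gene, within 10 kb of its span, followed another order than the height of its regions. In shNIT2 it was longest at CDA (4561 bp), followed by TYMP (3730 bp), RRM2 (2508 bp), DPYD (2228 bp), UPP1 (1953 bp) and TYMS (1949 bp). FPGS (524 bp), UMPS (521 bp), SLC29A1 (498 bp) and TK1 (325 bp) had a single narrow region each. TYMS reached its length with 1 region and the most fragments of the 22 (103). In shNT, CDA again had the longest call (2090 bp), then DPYD (990 bp), SLC29A1 (547 bp), TYMS (340 bp), UPP1 (286 bp) and FPGS (247 bp). SLC29A1 was the only gene of the 10 with more DNA called in the control than in the knockdown list. The median region width was 573 bp over the whole shNIT2 list and 366 bp over the shNT list.

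Within the knockdown list, the start regions of TYMP, CDA, RRM2 (upstream) and FPGS had a higher −log10 p than 93.7%, 89.1%, 89.2% and 88.9% of regions, whereas UMPS stood at 60.4%. The downstream RRM2 region stood at 82.3%, the UPP1 start regions at 77.0% and 45.1%, and the weaker CDA region at 32.5%. The −log10 p belongs to the summit, which lay 1223 bp upstream of the start for TYMP and 1607 bp for RRM2 (upstream). Within the control list, the SLC29A1 start region stood at 83.4%, above that of TYMS (75.9%) and UPP1 (66.6%). These ranks are within a list and show no change between lists.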
